A study of Mus musculus with 58 samples.

Results

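The libraries described here measured total RNA in mouse embryonic stem (mES) cells after 8 h of DPY30 degradation. They are the 3 SLAM-seq libraries labelled DPY30mAID at 8 h and the 3 at 0 h, which make 6 of the 58 libraries of the series, and every read was used whether or not it carried a T>C mismatch. The cells were E14 mES cells of the 129/Ola background in serum medium with LIF. In all 6 libraries both Dpy30 alleles carried the mAID tag at the C terminus, followed by a cleavable peptide and BFP, and the cells expressed the plant F-box protein OsTIR1 from a piggyBac transgene, and the groups differed in the time with auxin. The line was made from homozygous clones. At both times new RNA was labelled with 4-thiouridine (4sU), given at 100 µM during the last 60 min of culture. The comparison asks which RNAs had changed in amount by 8 h, as a companion to the newly made RNA that the same libraries report through T>C reads. The other groups used were DPY30mAID cells at 2 h and 24 h, with 3 libraries each, and RBBP5FKBP cells at 0 h and 8 h, with 3 each, in which RBBP5 carries a tag that dTAG-13 directs to degradation. DPY30mAID_Kdm5dKO cells at 0 h and 8 h, with 2 libraries each, are the DPY30mAID line with Kdm5a and Kdm5b knocked out, and were picked as clones. Quant-seq libraries of DPY30mAID cells without 4sU, 2 with auxin and 2 with DMSO, came from cells held for 8 h in retinoic acid (RA) without LIF.

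DPY30 is a core subunit of the SET1/COMPASS and MLL complexes, the enzymes that methylate histone H3 at lysine 4 (H3K4). Together with ASH2L, RBBP5 and WDR5 it forms the module that activates the catalytic subunits, and H3K4me3 marks the promoters of active genes in most cell types. KDM5A and KDM5B remove that mark. Auxin bridges the mAID tag to OsTIR1, which hands the tagged protein to a ubiquitin ligase. The amount of an RNA follows a change in its synthesis only as fast as the existing molecules decay, so total and newly made RNA can differ at an early time.

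Between 2048085 and 2806821 reads were counted per library at 0 h, and between 2065930 and 2346834 at 8 h. T>C reads made up 15.8% ± 0.463 of all reads at 0 h (SD, n = 3) and 9.46% ± 3.78 at 8 h, and were lowest, at 5.51%, in 8 h replicate 3 (exact permutation test, 2-sided p = 0.1, which is as low as 3 against 3 libraries allow). In that library 37.0% of the sequenced reads fell in the counted 3′ intervals, against 43.1% to 44.5% in the other five. The defining mES genes, among them Pou5f1, Sox2 and Nanog, were all detected at both times. They summed to 8786 CPM (reads scaled to a common library size with TMM factors) at 0 h and 6680 CPM at 8 h, of which Dppa5a gave 4760 and 3430 CPM. Neural markers summed to 116 and 94.1 CPM, and 10 fibroblast markers to 5.21 CPM at 0 h and 3.78 CPM at 8 h, with 6 and 7 of them at 0. Primitive endoderm markers summed to 585 and 555 CPM, of which Sparc gave 433 and 423 CPM. Their part in the results was not tested, and in bulk RNA fewer cells of a type cannot be told apart from less RNA per cell. In a principal component analysis of the 12 DPY30mAID libraries, the 8 h libraries stood apart from all others on the second component, with 16.7% of the variance, and the 24 h libraries on the first, with 38.5%. The labels do not say whether replicates came from separate cultures, so p-values measure only the spread between these libraries, and all changes are relative to the total RNA of a library.

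After 8 h without DPY30, total RNA of single genes changed in both directions. TMM scaling sets the typical change near 0, so a change shared by most RNAs would not appear. Of 9848 genes tested with edgeR's quasi-likelihood test, 218 (2.21%) were called higher and 193 (1.96%) lower, where a call took an adjusted p under 0.05 (Benjamini-Hochberg) together with more than a doubling or halving. At any size of change, 524 genes rose (5.32%) and 773 fell (7.85%), and "rose" and "fell" are used below for that looser test. The median log2 fold change over all genes was 0.01, and the quartiles lay at −0.31 and 0.37. Genes called higher had a median level of 9.75 CPM at 0 h and 25 CPM at 8 h, and 114 of the 218 were under 10 CPM at 0 h. Genes called lower started from a median of 38.3 CPM and ended at 14.5 CPM, whereas the median 0 h level of all genes tested was 29.2 CPM. The 3 libraries at 8 h all lay above the 3 at 0 h for 214 of the 218 genes called higher, and all below for 185 of the 193 called lower. Over all 9848 genes tested they lay above for 1504 and below for 1533, which together is 30.8%. Calls were made on the same libraries, so this separation is a description. Ephx1 and Rhobtb1 had no read in any 0 h library, and with the limit of 3 counts over the group they were at least 9.99-fold and at least 12.8-fold higher at 8 h, from 28 and 36 reads. Genes were kept with a mean of 10 reads at any time point, so these 2 could enter only through a later time. Rises from the lowest 0 h levels cannot be read apart from that filter.

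The split depended on the scaling. TMM factors ran from 0.962 to 0.978 at 0 h and from 1.04 to 1.05 at 8 h, and without them 314 genes were called higher and 138 lower, with the median of all genes at 0.12. Without 8 h replicate 3, 147 genes were called higher and 158 lower, and 61 genes called higher and 81 called lower were called in each of the 6 fits that left out 1 library.

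**Figure D1:**
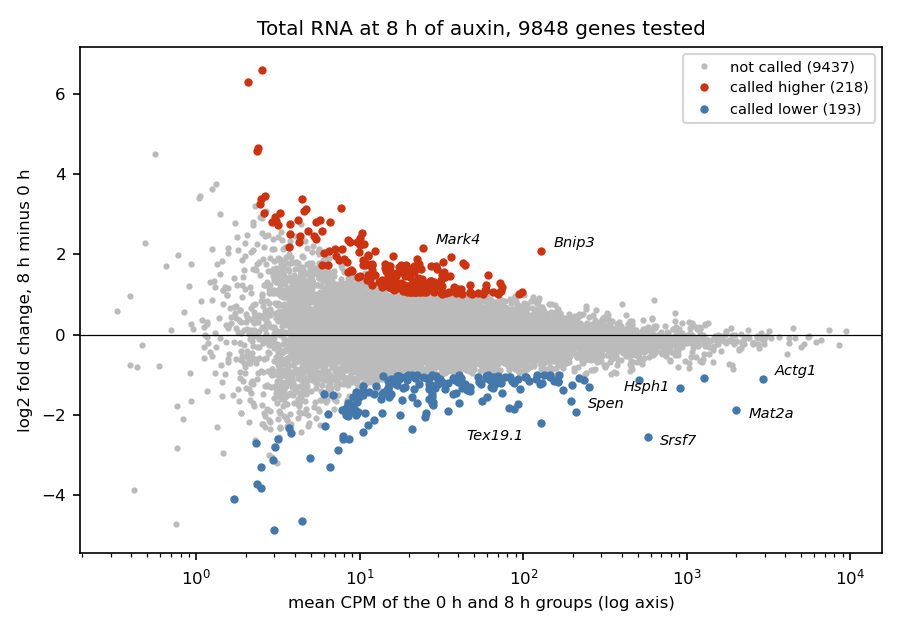
Each point is a gene tested, at the mean CPM of the 0 h and 8 h groups (horizontal log axis) and at its log2 fold change of total RNA, 8 h minus 0 h (vertical axis). The 218 genes called higher are red and the 193 called lower blue, and the called genes of the highest levels, such as Mat2a and Actg1, lie below 0.

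**Figure D2:**
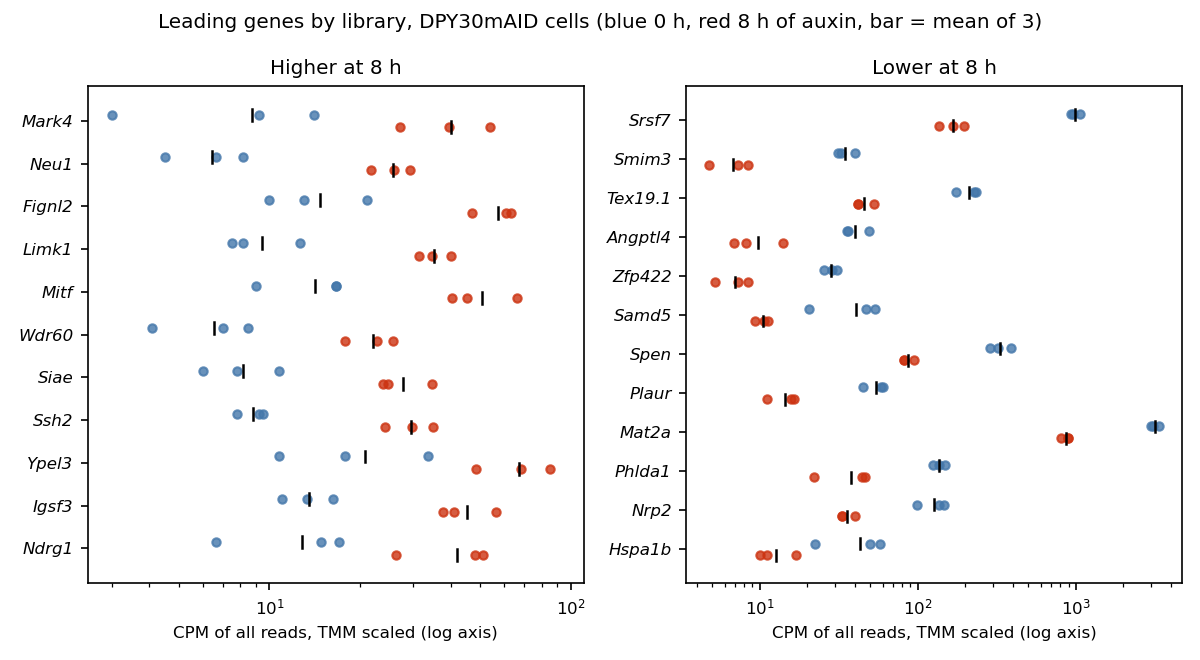
Each point is 1 library (blue 0 h, red 8 h), and the bar is the mean of 3 libraries, in TMM-scaled CPM on a log axis, for 11 of the genes with the largest rise and the 12 with the largest fall by the naming rule. In each of these 23 genes the 8 h points lie on 1 side of all 0 h points, which the naming rule required.

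The steepest falls included abundant RNAs. Leading genes were named only where the 0 h and 8 h libraries did not overlap, so for them that separation is a description. Srsf7, an SR-protein splicing factor (chromosome 17, 80200080 to 80207307, minus strand, GRCm38), gave 934, 958 and 1058 CPM at 0 h and 196, 168 and 137 CPM at 8 h. Its groups did not overlap, and its log2 fold change was −2.56 (SE 0.11, edgeR adjusted p = 1.74e-25). Mat2a, the methionine adenosyltransferase that makes S-adenosylmethionine (chromosome 6, 72432799 to 72439558, minus strand), gave 3001, 3092 and 3385 CPM at 0 h against 893, 802 and 894 CPM at 8 h. Every 8 h library was thus far below every 0 h library, with a log2 fold change of −1.87 (SE 0.08, edgeR adjusted p = 1.37e-24). Spen, a large RNA-binding repressor with a role in X inactivation (chromosome 4, 141467890 to 141538597, minus strand), went from 388, 288 and 321 CPM to 94.9, 82.4 and 82.5 CPM, a log2 fold change of −1.94 (SE 0.15, adjusted p = 3.90e-15). All of its 8 h libraries lay below all 0 h libraries.

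Tex19.1, a germ-line and placental gene that mES cells also express (chromosome 11, 121146143 to 121148319, plus strand), gave 226, 234 and 176 CPM at 0 h and 52.7, 41.9 and 41.7 CPM at 8 h, with no overlap and a log2 fold change of −2.22 (SE 0.16, adjusted p = 1.38e-15). Phlda1, which is induced by FGF and ERK signalling, gave 150, 125 and 136 CPM against 46.7, 44.2 and 22.1 CPM (log2 fold change −1.86, SE 0.19, adjusted p = 2.08e-10). The lowest of its 8 h values was that of replicate 3. Nrp2, a semaphorin and VEGF co-receptor, went from 146, 137 and 98.5 CPM to 33.3, 33.1 and 40.4 CPM (log2 fold change −1.84, SE 0.20). The other leading falls were Smim3, Angptl4, Zfp422, Samd5, Plaur and Hspa1b, with log2 fold changes between −2.35 and −1.77. Angptl4 encodes a secreted inhibitor of lipoprotein lipase, Plaur the urokinase receptor, and Hspa1b an inducible HSP70 with a close paralogue, Hspa1a, though no read counted for either gene was multimapped.

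The promoters of Srsf7 and Mat2a, which had the smallest p-values of all leading genes, are shown from 250 bases before to 50 after the RefSeq transcript start (GRCm38.p6). Srsf7 lies at chr17:80207256-80207555 and Mat2a at chr6:72439507-72439806, both on the minus strand. They hold 28 and 34 CpG dinucleotides in 300 bases, and the median over the 7845 tested genes with a RefSeq promoter was 22.
Srsf7: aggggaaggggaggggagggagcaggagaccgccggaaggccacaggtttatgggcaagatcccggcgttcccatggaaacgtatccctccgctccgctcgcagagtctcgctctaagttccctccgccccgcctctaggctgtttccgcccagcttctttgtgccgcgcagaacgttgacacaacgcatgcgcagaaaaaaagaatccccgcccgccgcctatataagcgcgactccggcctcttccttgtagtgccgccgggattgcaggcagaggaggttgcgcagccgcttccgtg
Mat2a: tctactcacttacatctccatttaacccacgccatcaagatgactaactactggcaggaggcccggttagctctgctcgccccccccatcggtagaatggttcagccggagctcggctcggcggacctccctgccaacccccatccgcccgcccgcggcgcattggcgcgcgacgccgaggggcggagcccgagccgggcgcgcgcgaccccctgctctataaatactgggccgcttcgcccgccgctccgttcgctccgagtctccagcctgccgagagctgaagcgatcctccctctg

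Leading rises started from low levels. Mark4, a microtubule-affinity-regulating kinase (chromosome 7, 19424775 to 19458821, minus strand), gave 3.00, 14.1 and 9.26 CPM at 0 h and 39.4, 27.0 and 53.8 CPM at 8 h. The lowest 8 h library was still above the highest 0 h library, with a log2 fold change of 2.15 (SE 0.40, edgeR adjusted p = 9.66e-05). Neu1, the lysosomal sialidase, gave 4.51, 8.14 and 6.67 CPM at 0 h against 26.0, 29.3 and 21.7 CPM, a log2 fold change of 1.97 (SE 0.37, adjusted p = 0.000136). Mitf, the transcription factor that drives melanocyte and lysosomal genes, gave 9.01, 16.7 and 16.7 CPM against 40.2, 45.2 and 66.4 CPM, a log2 fold change of 1.82 (SE 0.28, adjusted p = 4.27e-06). Both groups again stayed apart. Limk1, which phosphorylates cofilin, and Ssh2, a cofilin phosphatase, rose by 1.89 and 1.74 on the log2 scale. Ndrg1, a hypoxia-inducible gene, rose by 1.72. The remaining leading rises were Fignl2, Wdr60, Siae, Ypel3 and Igsf3, between 1.72 and 1.94.

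The tagged gene itself changed less. Dpy30 RNA (chromosome 17, 74299474 to 74323944, minus strand) gave 158, 162 and 176 CPM at 0 h and 116, 135 and 75.1 CPM at 8 h, with a log2 fold change of −0.61 (SE 0.18, edgeR adjusted p = 0.0174). All 8 h libraries lay below all 0 h libraries, but the fall did not pass without 8 h replicate 3 (−0.40, adjusted p = 0.175), without 0 h replicate 3 (−0.56, adjusted p = 0.0679) or without TMM factors (−0.50, adjusted p = 0.0556). The degron acts on the protein, so the RNA level is no check of the labels. Setd1b, a catalytic subunit, fell from 279, 310 and 294 CPM to 195, 199 and 185 CPM (−0.61, SE 0.12, adjusted p = 0.000325). Of 21 genes for H3K4 methyltransferase subunits, 3 fell (Setd1b, Dpy30 and Wdr5) and 2 rose (Cxxc1 and Paxip1, by 0.62 and 0.60 on the log2 scale), with a list median of 0.08. Those are 14.3% and 9.52% of the list, beside 7.85% falling and 5.32% rising over all genes. Neither rise passed without 0 h replicate 1 or without 8 h replicate 1. The falls numbered 1 without 0 h replicate 3 or without 8 h replicate 3, and without TMM factors 1 member fell and 4 rose. None of the 5 H3K4 demethylase genes passed, and Kdm5b had 929, 983 and 931 CPM at 0 h against 797, 844 and 828 CPM (adjusted p = 0.158).

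Among 40 genes for promoter-proximal pausing, elongation and the Integrator complex, 5 fell (12.5%, beside 7.85% of all genes) and 2 rose (5%, beside 5.32%), and the list median was −0.02. Hexim1 and Larp7 encode parts of the 7SK particle that holds the elongation kinase P-TEFb inactive. Hexim1 went from 181, 166 and 194 CPM to 104, 95.0 and 101 CPM (−0.85, SE 0.16, edgeR adjusted p = 0.000103). Larp7 went from 160, 160 and 191 CPM to 69.4, 107 and 103 CPM (−0.88, SE 0.17, adjusted p = 0.00014). Neither gene's groups overlapped. Ccnt1, the cyclin of P-TEFb, fell by 0.51 on the log2 scale, and the Integrator subunit genes Ints7 and Ints13 fell by 0.80 and 0.64. The rises were Paf1 at 0.81 and Nelfcd, a NELF subunit gene, at 0.56, and leaving out single libraries gave between 0 and 3 rises and 4 or 5 falls. Without TMM factors 5 rose and 4 fell. No member was called, and Ints13, Paf1 and Nelfcd each failed to pass without at least 1 library.

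Of 24 pluripotency genes tested, 8 fell, 0 rose and 16 did not pass (edgeR adjusted p below 0.05), beside 7.85% falling over all genes, and the list median was −0.21. Gdf3, a TGF-beta family ligand, went from 85.6, 78.1 and 77.8 CPM to 34.5, 39.1 and 39.9 CPM (−1.09, SE 0.22, adjusted p = 0.000434) and was the only member called. Nanog went from 527, 533 and 612 CPM to 388, 363 and 308 CPM (−0.66, SE 0.10, adjusted p = 7.55e-06), with no overlap. Klf5 fell by 0.66 on the log2 scale, Zfp42 by 0.63, Sall4 by 0.43, Esrrb by 0.41 and Klf4 by 0.38, and the groups overlapped in Zfp42. Sox2 had a log2 fold change of −0.26 (adjusted p = 0.0505) and Pou5f1 one of 0.03 (adjusted p = 0.879). Reads mapped to more than 1 place for 97.2% of Pou5f1, 78.4% of Zfp42 and all of Dppa5a, so related copies may share their counts. Without TMM factors 7 members fell and 2 rose, with a list median of −0.10, and leaving out single libraries gave 6 to 9 falls and 0 rises. In reads without T>C 6 fell and 1 rose, with a list median of −0.07. In RBBP5FKBP cells at 8 h of dTAG-13, 4 of the 24 rose and 4 fell, beside 4.2% and 4.96% of all genes, with a list median of 0.06. In the FGF and ERK feedback list, 3 of 14 fell (Phlda1, Spred1 and Spry4) and Ier3 rose. Those are 21.4% and 7.14% of the list, beside 7.85% and 5.32% of all genes. Leaving out single libraries gave 2 or 3 falls, and without TMM factors 2 fell. The rise of Ier3 did not pass without 0 h replicate 3, without 8 h replicate 1 or in reads without a T>C conversion. Spred1, a brake on RAS signalling, went from 262, 302 and 323 CPM to 142, 136 and 143 CPM (−1.08, SE 0.13, adjusted p = 9.64e-09).

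Of 18 heat shock genes 8 fell (44.4%, beside 7.85% of all genes) and 0 rose, with a list median of −0.23. Hsph1, an HSP110 chaperone, went from 448, 428 and 494 CPM to 239, 233 and 218 CPM (−0.99, SE 0.11, edgeR adjusted p = 5.21e-09). Chordc1, an HSP90 co-chaperone, fell by 1.35 and Hspa1a by 1.94 on the log2 scale. Groups stayed apart for all of these genes. The count of falls was 4 without 0 h replicate 2, without 8 h replicate 2 or without TMM factors, and Hsp90aa1 and Hspd1, with changes of −0.23 and −0.24, were among those lost. Of the reads of Hsp90aa1 96.9% were multimapped, and reads mapping to 1 place gave it the opposite sign (0.186). In RBBP5FKBP cells none of the 17 heat shock genes tested passed with edgeR, where 4.96% of all genes fell, and the list median was −0.15. Of 22 genes of the integrated stress response, which ATF4 induces, 9 fell (40.9%, beside 7.85% of all genes) and 0 rose, with a list median of −0.44. Cth, which makes cysteine from cystathionine, went from 79.1, 95.1 and 106 CPM to 39.0, 32.1 and 39.5 CPM (−1.34, SE 0.20, adjusted p = 1.27e-06). Aars, Slc7a3, Slc3a2 and Nars, genes of tRNA charging and amino acid transport, fell by 0.61 to 0.81. Atf4 itself had a log2 fold change of −0.10 (adjusted p = 0.643), and between 7 and 10 members fell under the alternatives run. In RBBP5FKBP cells 2 members fell and 1 rose, beside 4.96% and 4.2% of all genes, with a list median of 0.04. In the unfolded protein response, 3 of 14 rose (21.4%, beside 5.32% of all genes) and 0 fell: Hspa5 (BiP) by 0.38, Xbp1 by 0.83 and Sdf2l1 by 0.95 on the log2 scale, while leaving out single libraries gave 0 (without 8 h replicate 2) to 2 rises. Of 20 p53 targets 5 fell (25%, beside 7.85% of all genes), namely Perp, Gadd45a, Mdm2, Aen and Cdkn1a. That count dropped to 1 without 0 h replicate 2, without TMM factors or in reads without T>C, and was at most 3 with any library left out. In RBBP5FKBP cells 4 of the 20 rose and 0 fell, beside 4.2% and 4.96% of all genes.

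**Figure D3:**
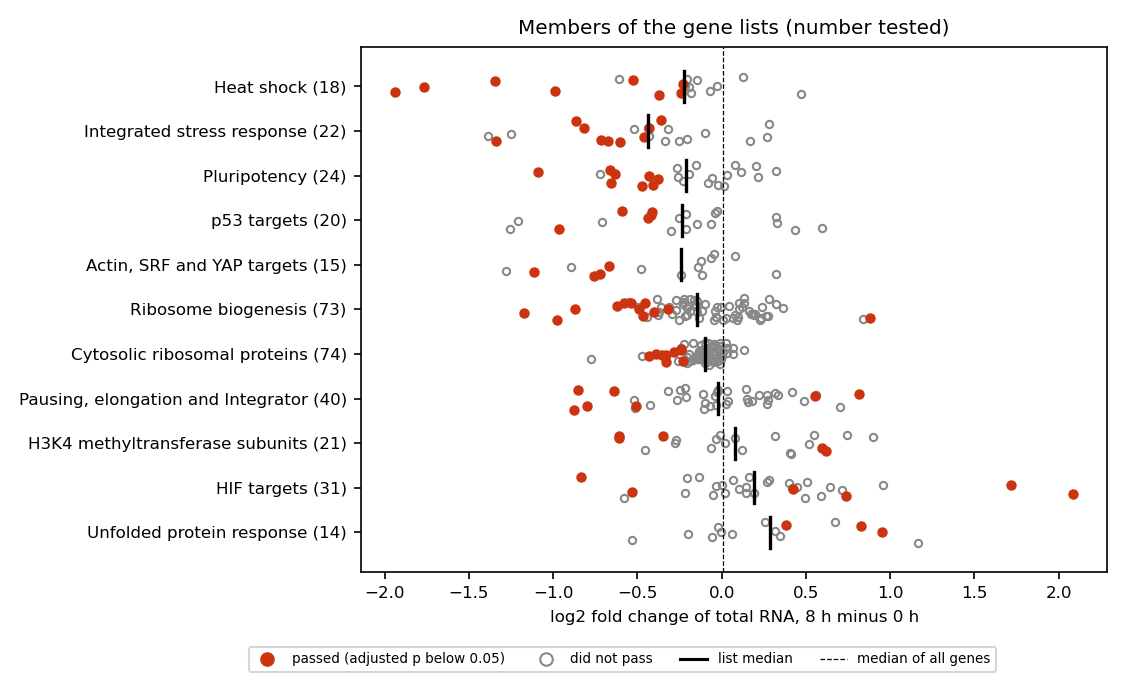
Each point is a member of a gene list, with the number tested in brackets, at its log2 fold change of total RNA at 8 h against 0 h. Filled points passed at an adjusted p below 0.05, bars are list medians and the dashed line is the median of all genes, and no heat shock or integrated stress response gene passed to the right of it.

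In the list of HIF targets 4 of 31 rose (12.9%, beside 5.32% of all genes) and 2 fell (6.45%, beside 7.85%), with a list median of 0.19, and the counts were 7 and 1 without TMM factors and 2 rises without 0 h replicate 2 or without 8 h replicate 2. Bnip3, a mitochondrial protein of mitophagy, gave 43.6, 57.8 and 44.8 CPM at 0 h and 223, 190 and 211 CPM at 8 h. That is a log2 fold change of 2.09 (SE 0.15, adjusted p = 2.09e-16), and 22.3% of its reads were multimapped. Fam162a, another HIF target, fell by 0.83. In glycolysis 3 of 19 fell (15.8%, beside 7.85% of all genes) and 1, Pfkl, rose (5.26%, beside 5.32%). Pfkl did not pass without replicate 2 or 3 of either time, 1 glycolysis gene fell without 0 h replicate 3, and 3 rose without TMM factors.

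The promoter of Bnip3 is shown because HIF binds the core ACGTG. At chr7:138909457-138909756 (minus strand, RefSeq, GRCm38.p6), capitals mark the core, which was read on both strands and overlaps itself there.
Bnip3: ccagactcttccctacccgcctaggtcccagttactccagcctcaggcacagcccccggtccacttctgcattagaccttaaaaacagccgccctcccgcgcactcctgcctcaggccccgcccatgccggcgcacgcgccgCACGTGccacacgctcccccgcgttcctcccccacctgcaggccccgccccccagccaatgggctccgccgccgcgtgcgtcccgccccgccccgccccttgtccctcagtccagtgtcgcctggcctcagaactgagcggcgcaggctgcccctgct
ACGTG stood on either strand in 19 of 26 promoters of the HIF target list, in 52 of 166 of the genes called higher and in 34 of 149 of those called lower. The share over all 7845 promoters matched was 30.7%, so genes called higher held it about as often as all genes (31.3%).

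In ribosome biogenesis 11 of 73 fell (15.1%, beside 7.85% of all genes, and 5 without TMM factors), with a list median of −0.14, led by Rrs1, which went from 227, 225 and 223 CPM to 106, 115 and 79.0 CPM (−1.17, SE 0.14, edgeR adjusted p = 7.86e-09), and by Rrp1b at −0.98. The 1 rise, Tbl3 at 0.88, passed only without 8 h replicate 3 when single libraries were left out. Of 74 cytosolic ribosomal protein genes 9 fell (12.2%, beside 7.85% of all genes) and 0 rose, with changes between −0.43 and −0.23. That count was 3 without 8 h replicate 3 and 2 without TMM factors, where the list median turned from −0.10 to 0.01. At 24 h 52 of these genes rose and 3 fell, beside 15.9% and 17% of all genes, and in RBBP5FKBP cells at 8 h 2 rose and 0 fell, beside 4.2% and 4.96%. Between 64.7% and 99.8% of the reads of these 9 genes were multimapped, and reads mapping to 1 place gave Rpl10a the opposite sign (0.175). Of 34 genes of DNA replication 5 fell (14.7%, beside 7.85% of all genes, and 3 without TMM factors), led by Mcm10 at −0.71. Of 27 mitotic genes 2 fell (7.41%) and 1 rose (3.7%), near or below the 7.85% and 5.32% of all genes, with a list median of 0.11. With 1 library left out the mitotic list gave 0 or 1 falls and 0 to 2 rises, and without TMM factors 0 falls and 2 rises. In the actin, SRF and YAP list 4 of 15 fell (26.7%, beside 7.85% of all genes), namely Actg1, Ajuba, Amotl2 and Cnn2. There 2 fell without 0 h replicate 3 or without 8 h replicate 2. Actg1, at −1.12, had 99.7% multimapped reads and did not pass in reads that map to 1 place. In the list of the formative transition 2 of 9 fell and 2 rose (22.2% each, beside 7.85% and 5.32% of all genes), and 1 of each was called. Sox4 fell there by 0.85 and Dnmt3b, a de novo DNA methyltransferase, rose by 0.62, neither of them called. With 1 library left out 1 or 2 fell and 1 or 2 rose, the lower counts of both without replicate 2 of either time, and of falls also without replicate 3 of either time. In the MYC and MAX list 2 of 11 rose and 2 fell (18.2% each, beside 5.32% and 7.85% of all genes). Mxd4, a MAX partner that opposes MYC, rose by 1.57 but did not pass without 0 h replicate 3 or 8 h replicate 2, and Mycn fell by 0.67 but did not pass without 8 h replicate 3. No member passed among 5 AhR targets, 5 germline and 2-cell genes, 6 primitive endoderm markers or 5 trophectoderm markers, and Sox1 alone fell among 4 neural markers. Of 22 genes of cholesterol synthesis and uptake 4 rose and 4 fell (18.2% each, beside 5.32% and 7.85% of all genes). In RBBP5FKBP cells 2 of them rose and 8 fell, beside 4.2% and 4.96%. Of 19 genes of the methionine cycle and polyamines 1 rose (5.26%) and 2 fell (10.5%), all of them called. Few members passed in 4 other lists, beside 7.85% falling and 5.32% rising over all genes. Of 10 LIF targets 2 fell (20%), with 0 falls without 8 h replicate 1, and 1 fall and 1 rise without TMM factors. Of 5 Wnt targets 1 rose (20%), and 0 did so without 0 h replicate 2 or 8 h replicate 2. Among 11 Nodal and BMP genes 1 rose and 1 fell (9.09% each). The rise passed only without 0 h replicate 3 when single libraries were left out, and in that fit the fall did not pass. Among 15 immediate early genes 1 rose (0 without 8 h replicate 1) and 1 fell (0 without 0 h replicate 1), 6.67% each.

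Genes with a high level and genes with a high share of T>C reads had the lowest medians. Both orders were taken from the 0 h libraries of RBBP5FKBP cells, which this comparison did not use. In 5 groups of genes ordered by reads there, median log2 fold changes ran from 0.19 in the lowest group through 0.13, 0.06 and −0.03 to −0.11 in the highest. The highest group, of 1963 genes, held 0 genes called higher by edgeR and 35 called lower, and the lowest held 65 and 28. Genes of the lowest group could enter the test through a high level at 8 h or 24 h alone, so its median and its rises cannot be read apart from that filter. In 5 groups ordered by the share of T>C reads, a measure of how much of an RNA was made within the last hour, the medians were 0.00, 0.04, 0.02, −0.01 and −0.11. Of the 1627 genes with the highest T>C share, 61 (3.75%) were called lower, against 23 of 1628 (1.41%) in the group with the lowest. Genes called higher were spread more evenly, from 22 to 39 in a group. The level and the T>C share were not separated from each other.

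At 2 h, edgeR called 0 genes in either direction, where 94 higher and 63 lower had an unadjusted p below 0.05 with the same size of change and DESeq2 called 1 higher and 0 lower. At 24 h it called 607 higher and 694 lower. These contrasts share the 0 h libraries with the 8 h contrast, so values are only set side by side. At any size of change 15.9% of all genes rose and 17% fell at 24 h. The 218 genes called higher had a median log2 fold change of 1.43 at 8 h, beside 0.59 at 2 h and 1.06 at 24 h. For the 193 called lower it was −1.33, beside −0.36 and −0.50. Srsf7 stood at 897, 849 and 938 CPM at 2 h and at 863, 996 and 950 CPM at 24 h, in the range of its 0 h libraries or just under it. Phlda1 had 85.1, 65.6 and 73.5 CPM at 2 h (−0.87, adjusted p = 0.0405) and 134, 123 and 150 CPM at 24 h. The low level of both genes at 8 h lay between times with higher levels. Mat2a stood at 1250, 1346 and 1366 CPM at 24 h, above all 8 h and below all 0 h libraries. Spen stayed low, with 117, 93.5 and 104 CPM. Bnip3 went on to 393, 407 and 440 CPM and Ndrg1 to 84.6, 63.2 and 48.6 CPM, while Mark4 was back at 14.8, 7.46 and 13 CPM.

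**Figure D4:**
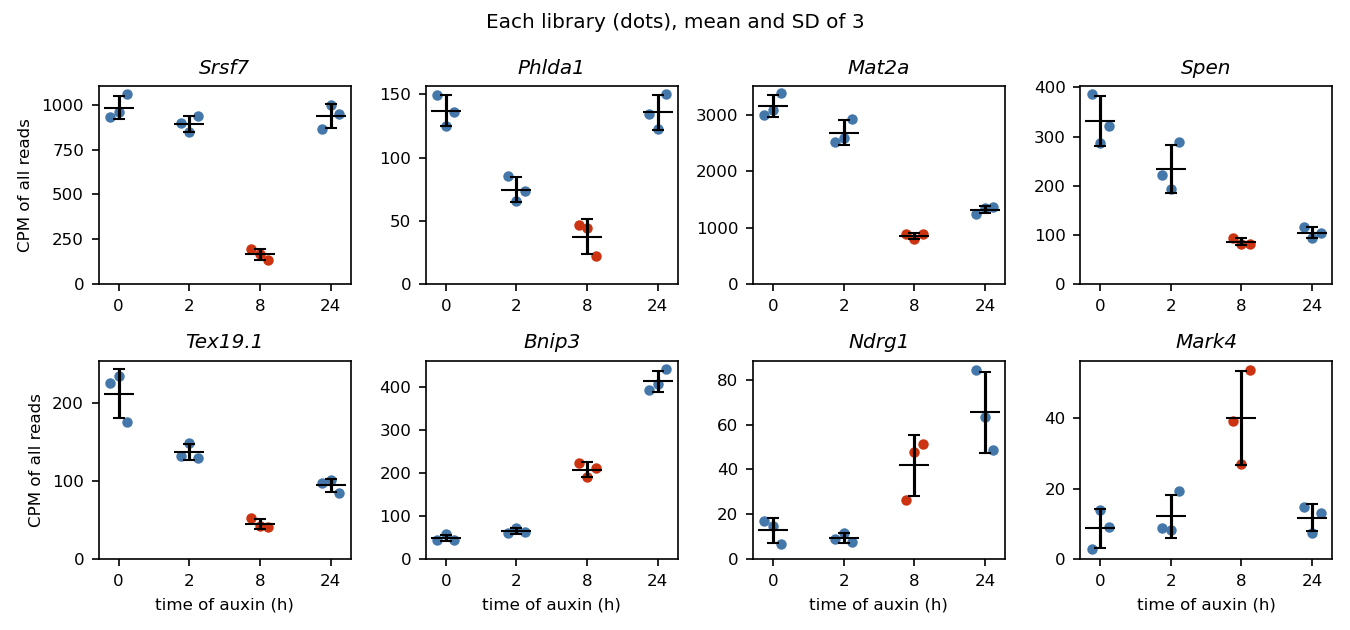
Each dot is 1 library and the bars are the mean and SD of 3, in TMM-scaled CPM of all reads (vertical axis) at 0, 2, 8 and 24 h of auxin (horizontal axis), with 8 h in red, for 8 genes. Srsf7 is back at 863 to 996 CPM at 24 h, Spen stays low, and Bnip3 rises further to 393 to 440 CPM.

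T>C reads are part of the total, so their changes are not independent of it. With the library sizes and TMM factors of all reads, 10 genes were called higher and 924 lower in T>C reads among 6317 tested, with a median log2 fold change of −0.72. TMM factors made from T>C reads gave 62 higher and 90 lower instead, and the lower count was 481 without 8 h replicate 3 and 1881 without 8 h replicate 1, so the counts that follow hold for the first scaling. Of the genes called lower in total RNA, 145 had enough T>C reads to test, 143 had a negative value there and 93 fell. Of the genes called higher, 106 could be tested, 95 had a positive value and 4 rose (0.158% of all genes), beside 16.1% of all genes that fell. The 4 were Fignl2, Ndrg1, Mitf and Fam117a, at 4.53, 2.01, 1.89 and 1.78 on the log2 scale. In reads without a T>C mismatch alone, 187 genes were called higher and 149 lower, of which 139 and 131 were also called in all reads.

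RBBP5FKBP cells, whose libraries share nothing with those of DPY30mAID cells, gave 219 genes called higher and 198 lower of 9676 tested at 8 h of dTAG-13. Among genes called higher after DPY30 loss, 203 were tested in RBBP5FKBP cells, 175 had a positive value, 43 rose and 0 fell, where 4.2% of all genes rose. Among those called lower 179 were tested, 150 had a negative value, 49 fell and 1 (Zmat4) rose, where 4.96% of all genes fell. Among genes tested in both lines, 38 were called higher in both, which is 18.7% of 203 DPY30mAID calls and 18.5% of 205 RBBP5FKBP calls. Called lower in both were 32, which is 17.9% of 179 and 17.1% of 187. Median log2 fold changes of the called genes in RBBP5FKBP cells were 0.67 and −0.56. Over the 9328 genes tested in both lines the 8 h changes correlated with Pearson's r = 0.365 and Spearman's rho = 0.357, and with r = 0.473 over the 2046 genes of at least 100 CPM. Genes are not independent replicates. By list, 5 of 14 FGF and ERK feedback genes and 8 of 73 ribosome biogenesis genes fell in RBBP5FKBP cells, and 0 rose in either list. Of 34 DNA replication genes 7 fell and 1 rose there, and of 14 actin, SRF and YAP genes 5 fell and 1 rose. Of 30 HIF targets 5 rose and 1 fell.

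Single genes were shared to different degrees. In RBBP5FKBP cells Srsf7 gave 652, 642 and 701 CPM at 0 h and 240, 226 and 244 CPM at 8 h, a log2 fold change of −1.49. Mat2a gave 2504, 2150 and 2293 CPM against 910, 1152 and 882 CPM, a change of −1.24. Mitf gave 16.0, 27.3 and 22.5 CPM against 86.4, 126 and 121 CPM, a change of 2.33. In all of these the groups stayed apart in both lines. Tex19.1 had 98.2, 89.1 and 104 CPM at 0 h and 73.4, 100 and 66.4 CPM at 8 h, which overlap. An interaction term in 1 fit of both lines tested the difference itself, and 70 genes (0.687%) had a change higher by more than 1 on the log2 scale in RBBP5FKBP cells and 67 (0.657%) one lower by as much, of 10196 tested (122 and 123 with DESeq2). At any size, 1.09% of all genes had a higher and 0.883% a lower change, and the 8 h change differed for 4 of the 218 genes called higher and 26 of the 193 called lower, in all but 1 of which, Arc, it was smaller in RBBP5FKBP cells. These genes were chosen on the DPY30mAID libraries that enter the test, so a smaller change elsewhere is not independent evidence. Of the 23 leading genes Srsf7, Tex19.1, Samd5, Spen and Mat2a differed, all with the weaker fall, or none, in RBBP5FKBP cells.

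In the absence of Kdm5a and Kdm5b the 8 h changes were smaller. In DPY30mAID_Kdm5dKO cells 0 genes were called higher and 1 lower of 11394 tested with edgeR, where an unadjusted p gave 46 and 50 and DESeq2 called 1 and 0. Of the genes called higher in DPY30mAID cells 1 of 217 rose there, and of those called lower 8 of 192 fell, beside 0.307% and 0.439% of all genes, with medians of 0.11 and −0.15. The interaction passed for 91 of the 218 genes called higher and 84 of the 193 called lower, all with a smaller change in DPY30mAID_Kdm5dKO cells, where over all 11483 genes 1.61% had a lower and 2.03% a higher change at any size. By more than 1 on the log2 scale, 81 genes (0.705%) had a higher and 113 (0.984%) a lower change, and with DESeq2 141 and 176. Among the 23 leading genes reported 19 differed. Srsf7 gave 620 and 647 CPM at 0 h and 578 and 602 CPM at 8 h. Mat2a gave 979 and 881 CPM against 812 and 736 CPM, and Spen 54.6 and 50.6 CPM against 51.1 and 53.3 CPM. For Mat2a these 0 h levels were near the 8 h levels of DPY30mAID cells, and for Spen they were below them. The DPY30mAID_Kdm5dKO libraries held 6582625 to 7792404 reads, with T>C shares of 4.69% and 5.27% at 0 h and 4.26% and 4.42% at 8 h, and their CPM were scaled apart from the others. A read covered 11.2 to 11.3 T positions in them, against 18.5 to 19.0 in DPY30mAID cells at 0 h and 8 h. T>C shares are thus not comparable between these lines. Genotype, clone and library set cannot be told apart in this contrast.

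**Figure D5:**
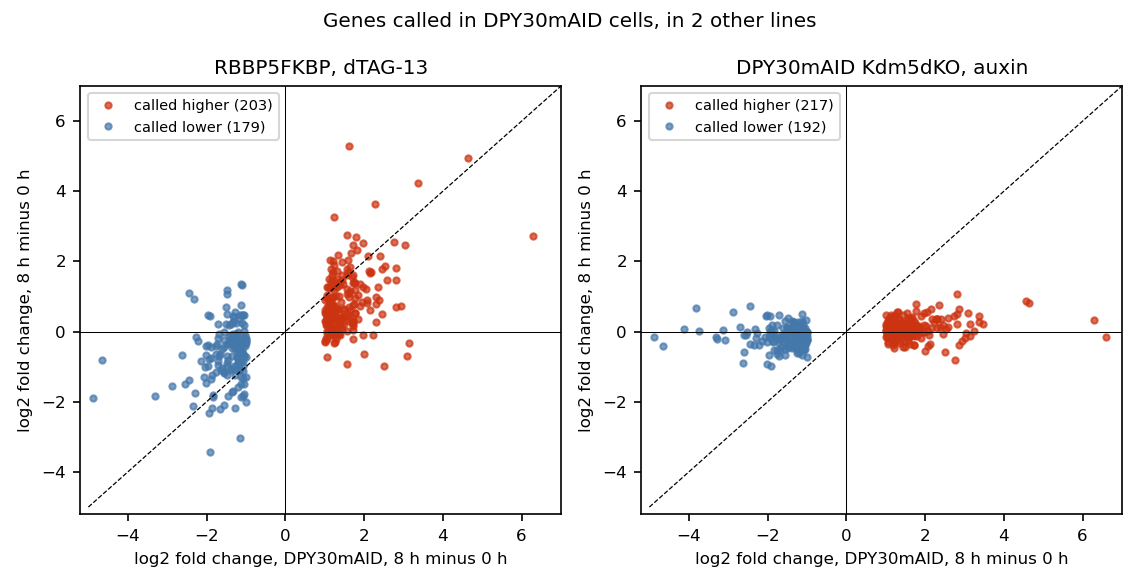
The horizontal axis is the log2 fold change of total RNA at 8 h in DPY30mAID cells for the genes called there, and the vertical axis is the same change in RBBP5FKBP cells (left) and DPY30mAID_Kdm5dKO cells (right). In RBBP5FKBP cells most points lie in the quadrants of equal sign (175 of 203 and 150 of 179), and in DPY30mAID_Kdm5dKO cells they lie near 0.

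Unlabelled RNA of the same degron line gave small differences between auxin and DMSO at 8 h of RA. There edgeR called 2 genes higher and 16 lower of 11415 tested. Of the genes called lower in the SLAM-seq libraries 189 were tested, 130 had a negative value and 12 fell, where 0.71% of all genes fell, and of those called higher 217 were tested, 152 had a positive value, 0 rose and 1, Lefty1, fell, where 0.0526% of all genes rose. Tex19.1 gave 929 and 888 CPM with DMSO and 493 and 462 CPM with auxin (−0.93, SE 0.12, adjusted p = 8.84e-05). Mat2a gave 1128 and 1117 CPM against 814 and 737 CPM (−0.53, SE 0.11, adjusted p = 0.0135). In both genes the auxin libraries lay below the DMSO libraries. Srsf7 gave 339 and 343 CPM against 300 and 310 CPM, with a change of −0.16 (adjusted p = 0.588). Medium, RA, 4sU and the DMSO control all differ from the SLAM-seq comparison and cannot be told apart.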

How the data were processed

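The authors made QuantSeq 3′-end libraries without molecular identifiers, so counts are reads. Per the file headers, the deposited tables came from SlamDunk, with raw read counts, T>C read counts and CPM for each of 46420 3′ intervals of GRCm38, and per the labels also from HISAT2 2.2.1 and featureCounts. The CPM the authors deposited were not used for any result. All reads were summed over intervals per gene (20177 genes), and gene positions were taken from the GENCODE vM21 annotation.

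The 12 DPY30mAID SLAM-seq libraries entered 1 edgeR (4.0.16, R 4.3.3) quasi-likelihood fit with TMM factors, keeping genes whose mean reached 10 reads at any time point. p-values were adjusted over all genes tested, and a gene was called at an adjusted p under 0.05 with a log2 fold change beyond 1. Every adjusted p is from edgeR unless DESeq2 (1.42.0) is named. RBBP5FKBP, DPY30mAID_Kdm5dKO and Quant-seq libraries were fitted apart, and differences between lines by an interaction term. T>C reads used the library sizes and factors of all reads.

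Leading genes were the 12 highest and the 12 lowest log2 fold changes among called genes with at least 20 CPM in the higher group, no overlap between groups and under 20% multimapped reads. Of these 24 genes 1 is not reported here, nor are some list members. Members of the gene lists that passed, defining members and Dpy30 were also named, and Ephx1, Rhobtb1, Fam117a, Arc, Zmat4, Lefty1 and Bnip3's promoter were chosen after their values were seen. The members and gene lists were chosen with earlier results of these data known. Totals of 2013350 to 2806821 reads per library set the precision, and limits from 0 counts (3 counts over a group) cover counting error only. The scripts were tested on simulated counts. Alternatives were DESeq2, no TMM factors, other count filters, the 0 h and 8 h libraries alone, a replicate block, unadjusted p, reads without T>C, reads mapping to 1 place, and each library left out. Spike-in RNA was not used here. In the Quant-seq series DMSO day 6 replicates 1 and 2 held identical values and entered no comparison.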

Additional observations from a re-analysis of the deposited data

Results flagged for a closer look

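The 8 h change of total RNA differed between cell lines by an interaction term (edgeR, adjusted p under 0.05, difference beyond 1 on the log2 scale for the counts). RBBP5FKBP cells had a higher change than DPY30mAID cells for 70 genes and a lower one for 67 (122 and 123 with DESeq2). Among the leading genes the difference, RBBP5FKBP minus DPY30mAID on the log2 scale, was 1.06 for Srsf7, 1.93 for Tex19.1, 2.43 for Samd5, 1.16 for Spen and 0.63 for Mat2a, all genes that were called lower in DPY30mAID cells.

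DPY30mAID_Kdm5dKO cells had a higher change than DPY30mAID cells for 81 genes and a lower one for 113 (141 and 176 with DESeq2). For leading genes that were higher in DPY30mAID cells, the difference, DPY30mAID_Kdm5dKO minus DPY30mAID, was −2.06 for Mark4, −1.81 for Neu1, −1.97 for Fignl2, −1.46 for Limk1, −1.72 for Mitf, −1.73 for Siae, −1.53 for Ssh2, −1.71 for Ypel3, −1.73 for Igsf3 and −1.63 for Ndrg1. For genes that were lower, it was 2.43 for Srsf7, 1.94 for Smim3, 1.81 for Tex19.1, 1.88 for Angptl4, 1.71 for Zfp422, 1.90 for Spen, 1.58 for Mat2a, 1.52 for Phlda1 and 1.28 for Nrp2. These genes were chosen on DPY30mAID libraries that enter both tests, and the lines differ in clone and library set as well as in genotype.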

How the results depend on the processing

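The counts of 218 and 193 genes stayed within 1.5 times under every alternative but an unadjusted p (425 higher, 319 lower), between 147 and 314 higher and between 136 and 198 lower. Without TMM factors the split was 314 higher and 138 lower, with the median of all genes moved to 0.12. Of the 23 leading genes reported 22 kept their direction and passed in all refits, and Zfp422 did not pass in reads without T>C (−1.44). Of 113 list members that passed, 40 did so in all refits. In reads mapping to 1 place the sign turned for Hsp90aa1 (0.186) and Rpl10a (0.175). DESeq2 called 1 gene higher at 2 h, 1 higher and 0 lower in DPY30mAID_Kdm5dKO cells and 1 higher in Quant-seq. For the differences between lines it called 122 higher and 123 lower (RBBP5FKBP) and 141 higher and 176 lower (DPY30mAID_Kdm5dKO). T>C calls depended most on the scaling, with 62 higher and 90 lower under TMM factors of T>C reads, and ranged from 3 to 27 higher and 481 to 1881 lower with 1 library left out (481 without 8 h replicate 3, 1881 without 8 h replicate 1). The replicate numbers did not pair the samples, since correlations of the deviations of 0 h and 8 h libraries of 1 number were −0.0592, 0.00910 and −0.0218. With the replicate block 218 genes were called higher and 186 lower at 8 h, 185 and 182 in RBBP5FKBP cells, 0 and 1 in DPY30mAID_Kdm5dKO cells, and 2 and 16 in Quant-seq. With a filter at 50 reads 143 of the 218 rises and 135 of the 193 falls were also called, and without 8 h replicate 3 126 and 128.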

Other observations

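Besides Srsf7, other SR-family splicing factor genes had less total RNA at 8 h. This list of 13 genes for SR and TRA2 proteins, which bind exonic enhancers, was chosen after the values of Srsf7 were seen, so its count is a description. Of 12 tested 8 fell, beside 7.85% of all genes, and 0 rose, and 7 to 9 fell under the alternatives, with a median log2 fold change of −0.72. Tra2a went from 302, 291 and 295 CPM to 111, 90.4 and 82.1 CPM (−1.65, edgeR adjusted p = 6.32e-15). Srsf3 went from 1218, 1308 and 1358 CPM to 562, 486 and 484 CPM (−1.34). Srsf5 gave 198, 293 and 270 CPM against 104, 106 and 82.9 CPM (−1.38), and Tra2b 667, 652 and 788 CPM against 343, 311 and 311 CPM (−1.12). In these 4 genes and Srsf7 the groups did not overlap at 8 h, and at 24 h their log2 fold changes were 0.08, 0.13, 0.04, −0.18 and −0.07, none of which passed. Srsf10, Srsf2 and Srsf1 fell by 0.84, 0.61 and 0.37 (log2) after 8 h and by 0.61, 0.49 and 0.69 after 24 h. Srsf6 and Srsf9 did not pass at 8 h but fell by 0.35 and 0.60 at 24 h, when Srsf11 rose by 0.44. Over all genes 17% fell at 24 h. In RBBP5FKBP cells 6 of the list fell, beside 4.96% of all genes, and 0 rose at 8 h, with a median of −0.42, and in DPY30mAID_Kdm5dKO cells 0 passed (edgeR), with a median of −0.09. Of 3 tested genes for CLK kinases, which phosphorylate SR proteins, 0 passed at 8 h under edgeR and DESeq2, with a median of −0.46. At 24 h all 3 fell (Clk1 by 1.15, Clk2 by 1.55 and Clk4 by 1.13 on the log2 scale), and in RBBP5FKBP cells at 8 h Clk1 fell by 1.17.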
